A study of Caenorhabditis elegans with 24 samples.

Results

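The 7 fatty acid desaturase genes of Caenorhabditis elegans, fat-1 to fat-7, were followed through 6 genotypes of whole young adult animals. They were chosen by name and matched to the gene identifiers of 2 expression tables. All 7 were found among the 19320 genes of the wild-type background and the 19718 genes of the daf-2 background, and all 7 are among the 13131 genes that had a mean rlog of at least 3 in both. Rlog is a regularised log2 of the normalised read count, so a difference of 1 is a doubling of the RNA level. The study examined what BCL-11, a zinc finger transcription factor, contributes to animals with intact and with reduced insulin/IGF-1 signalling. RNA of 24 samples was sequenced, 4 from each genotype. These were daf-2(e1370);bcl-11(bon125), daf-2(e1370);bcl-11(bon144), daf-2(e1370), bcl-11(bon125), bcl-11(bon144) and wild type (wt, N2), each collected on day 1 of young adulthood after growth at 20 °C on bacterial lawns.

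The allele daf-2(e1370) lowers the activity of the insulin/IGF-1 receptor in every cell and is carried by 3 of the genotypes, the control of the double mutants included. Both bcl-11 alleles were made by gene editing, are viable when homozygous and are hypomorphic, so they do not show what complete loss of BCL-11 would do. bon125 is a frameshift that leaves the zinc fingers intact and adds foreign residues, and bon144 is an in-frame deletion-insertion in a conserved domain. Nothing in the labels says that replicates came from separate cultures, beyond their batch number, so p-values measure the spread between these samples. Libraries of the daf-2 background and of the wild-type background were normalised in separate tables, and a difference between the backgrounds was therefore not tested.

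Desaturases put double bonds into fatty acyl chains with electrons that reach them through cytochrome b5. In C. elegans, FAT-5, FAT-6 and FAT-7 set the first double bond into saturated chains, FAT-5 preferring palmitic acid and FAT-6 and FAT-7 stearic acid. FAT-2 then turns oleic acid into linoleic acid, FAT-3 and FAT-4 add double bonds near the carboxyl end, and FAT-1 makes omega-3 from omega-6 fatty acids. The worm thereby makes long polyunsaturated fatty acids that mammals must take up in part with food, and most of this expression is known from the intestine and the hypodermis.

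The samples are whole animals, and fewer cells of a type and less RNA per cell cannot be told apart. All 7 measured intestine markers of a list of 8 passed the filter, and the list averaged 9.07 to 9.46 rlog over libraries with daf-2(e1370) and 8.82 to 9.48 over libraries with intact daf-2. The bcl-11(bon144) libraries stand apart, with a mean correlation across genes of 0.967 to 0.981 with their own genotype, against 0.991 to 0.994 for the wt libraries and at least 0.985 in the daf-2 background. The mutated gene does not check these labels, since neither allele removes the transcript. The mean rlog of bcl-11 itself was 6.15 ± 0.20 with bon125 and 6.65 ± 0.43 with bon144, against 6.37 ± 0.20 for wt (SD, n = 4 each). In the daf-2 background it was 7.19 ± 0.10 with bon125 and 7.02 ± 0.10 with bon144, against 7.08 ± 0.27 in the daf-2(e1370) control. Sequencing depth is unknown, because the values are already normalised.

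The genes lie on chromosomes IV and V of the assembly WBcel235. fat-4 (IV:9799429-9802226) and fat-3 (IV:9803023-9806119) are neighbours on the plus strand with 796 bases between them. fat-1 (IV:13315644-13318811) and fat-2 (IV:13323873-13326395) lie 5061 bases apart on the plus strand, with 1 annotated gene in between. fat-6 (IV:11913692-11915687) and fat-7 (V:7151353-7153146) are on the minus strand of different chromosomes. fat-5 (V:17725004-17726818, plus strand) overlaps the potassium channel gene twk-42 by 28 exonic bases at its end and holds the non-coding RNA W06D12.8 within an intron, both on the other strand. The libraries were not stranded, so reads of these genes and of fat-5 cannot be fully told apart. No desaturase gene has the values of another gene. However, fat-6 and fat-7 are close paralogs, and any reads they share would be divided by estimation. How many reads they share was not examined, and their separate levels are uncertain to that extent.

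All desaturases but fat-7 belonged to the strongly expressed genes of every genotype. Divided by exonic length, the mean level of fat-2, the gene of the linoleic acid-forming step, was the highest of the 7 everywhere, with 14.06 ± 0.43 in daf-2(e1370) and 13.62 ± 0.26 in wt (log2 of the rlog-scale level per kb, SD, n = 4 each). fat-1 had 12.72 ± 0.21 in daf-2(e1370), level with fat-6, and 12.69 ± 0.20 in wt, where it came next after fat-2. The stearoyl desaturase fat-6 had 12.73 ± 0.29 per kb in daf-2(e1370) and 12.19 ± 0.22 in wt. In daf-2(e1370), fat-6 and fat-1 therefore differed by less than their spread, whereas in wt the gap of 0.50 exceeded the sum of both SDs. In bcl-11(bon144) they were level as well, with a gap of 0.02.

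In the lower ranks of the 2 controls, the place of fat-5 and the distance of fat-7 to the others differed. fat-4 and fat-3, the front-end desaturases, had 11.91 ± 0.20 and 11.05 ± 0.23 per kb in daf-2(e1370) and 11.85 ± 0.11 and 11.40 ± 0.24 in wt. The palmitoyl desaturase fat-5 stood at 12.01 ± 0.31 per kb in daf-2(e1370), level with fat-4 within the spread, and at 10.72 ± 0.40 in wt, below fat-3. fat-7 came last in daf-2(e1370) at 7.56 ± 0.11 per kb, and in wt it shared the lowest place with fat-5 at 10.54 ± 0.31. Among the kept genes, 6936 of 14169 had a higher mean rlog than fat-7 in daf-2(e1370), against 1693 of 13459 in wt.

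**Figure D1:**
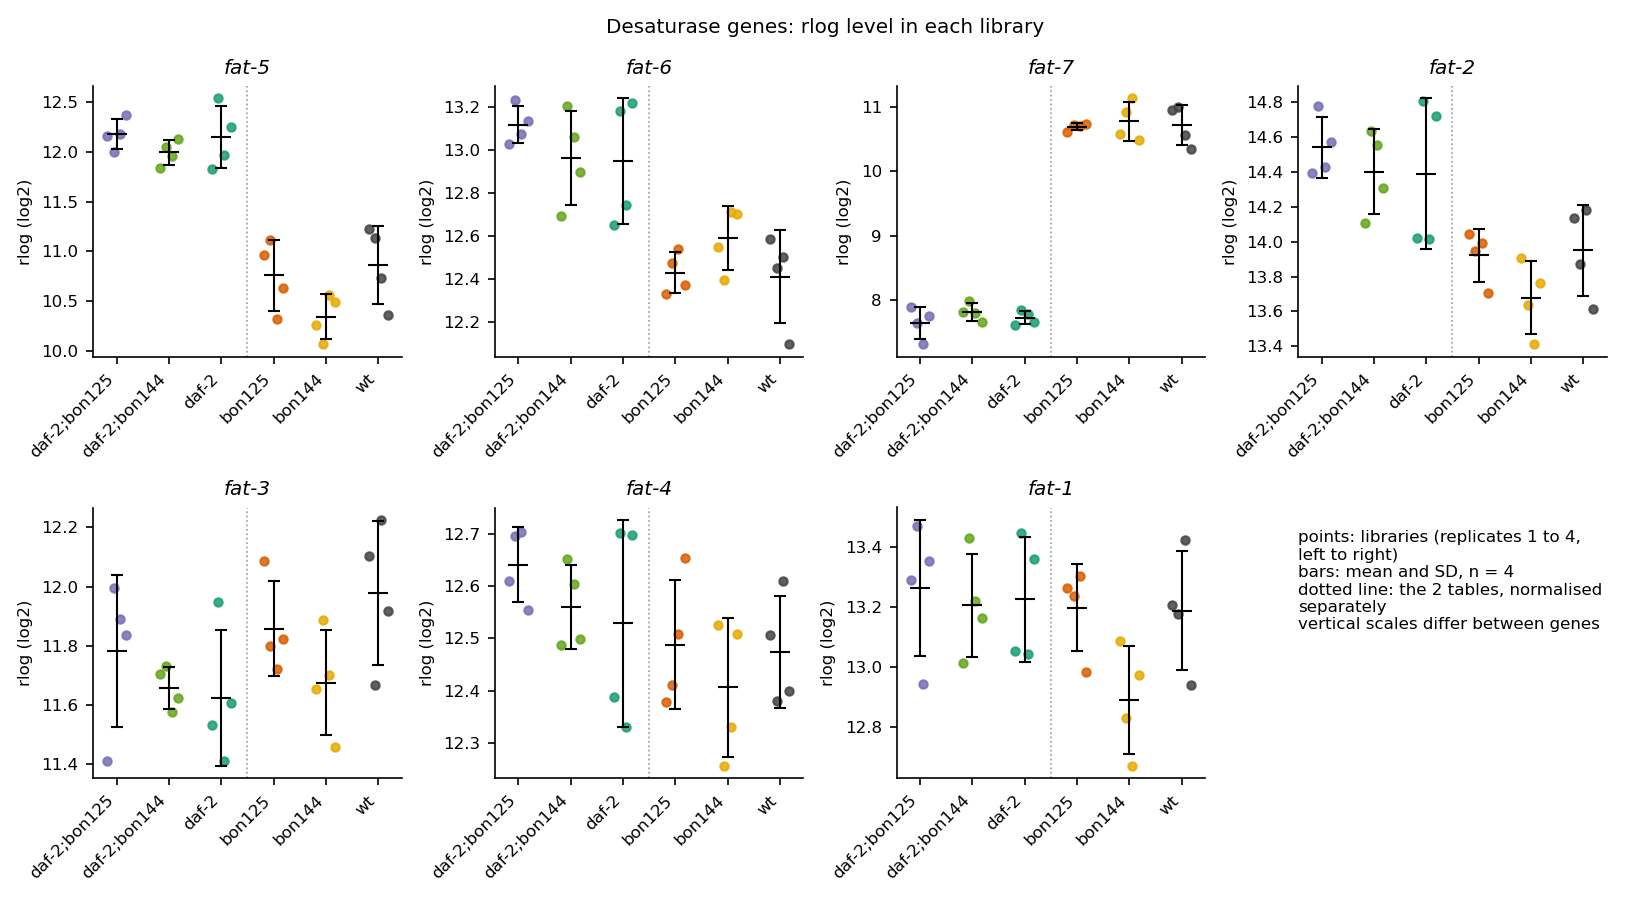
Rlog level (log2) of each desaturase gene in each of the 24 libraries, 1 panel per gene, with the 3 genotypes of the daf-2 background left of the dotted line and the 3 of the wild-type background right of it. Points are libraries and bars are the mean and SD (n = 4); fat-7 sits between 7.31 and 7.99 left of the line and between 10.35 and 11.13 right of it, and the genotypes of a background overlap for every gene.

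The bcl-11 alleles were compared with their controls gene by gene. No desaturase passed the test with either allele in either background, and in all 4 comparisons the 4 mutant and the 4 control libraries overlapped for all 7 genes. A gene was called at an adjusted p under 0.05 and a change of more than 1.5-fold, which is 0.585 on the log2 scale. Changes were smallest for bcl-11(bon125), and the largest one belonged to fat-5 in bcl-11(bon144).

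fat-5 had 10.26, 10.06, 10.56 and 10.49 rlog in replicates 1 to 4 of bcl-11(bon144), against 11.22, 11.13, 10.73 and 10.36 in wt. Replicates 1 and 2 of wt lay well above all bcl-11(bon144) libraries, while replicate 4 of wt lay below 2 of them. The log2 fold change was -0.52 ± 0.21 (SE), with a 95% interval of -0.97 to -0.06, an unadjusted p of 0.0282 and an adjusted p of 0.662 (limma, Benjamini-Hochberg). The mutant was lower in 3 of 4 same-numbered pairs. Leaving out 1 library at a time gave values between -0.69 and -0.40. For twk-42, which overlaps the end of fat-5, the mean rlog was 7.37 ± 0.36 with bon144 and 7.75 ± 0.64 for wt (SD, n = 4 each), and its part in the fat-5 value was not tested.

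With the other allele, fat-5 had 10.96, 11.12, 10.32 and 10.63 rlog in bcl-11(bon125), which spans almost the range of wt. Its log2 fold change was -0.10 ± 0.21 (SE), with a 95% interval of -0.56 to 0.35. In the daf-2 background the gene had 12.16, 12.00, 12.18 and 12.37 rlog in daf-2(e1370);bcl-11(bon125) and 11.84, 12.05, 11.96 and 12.13 rlog in daf-2(e1370);bcl-11(bon144), against 11.83, 12.54, 11.97 and 12.26 rlog in daf-2(e1370). Both double mutants fell inside the range of their control. The fold changes were 0.03 ± 0.14 and -0.15 ± 0.14 (log2, SE).

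The stearoyl desaturases FAT-6 and FAT-7 share a substrate, and their genes differed little with either allele. fat-6 had 12.55, 12.40, 12.71 and 12.70 rlog in bcl-11(bon144) and 12.33, 12.48, 12.54 and 12.37 in bcl-11(bon125), against 12.59, 12.45, 12.50 and 12.10 in wt. The lowest of these 12 values was replicate 4 of wt, and the fold changes were 0.18 ± 0.13 for bcl-11(bon144) and 0.02 ± 0.13 for bcl-11(bon125) (log2, SE). fat-7 had 10.58, 10.92, 11.13 and 10.48 rlog in bcl-11(bon144) and 10.61, 10.72, 10.71 and 10.74 in bcl-11(bon125), against 10.94, 11.00, 10.57 and 10.35 in wt. Its libraries were tightly grouped in bcl-11(bon125), with an SD of 0.06, and more widely spread in bcl-11(bon144) and wt, with SDs of 0.30 and 0.31. The fat-7 fold changes were 0.06 ± 0.17 and -0.02 ± 0.17 (log2, SE).

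In daf-2 animals the picture for the stearoyl desaturases was similar. fat-6 ranged from 13.03 to 13.23 rlog in daf-2(e1370);bcl-11(bon125) and from 12.69 to 13.20 in daf-2(e1370);bcl-11(bon144), against 12.65 to 13.22 in daf-2(e1370), where replicates 2 and 4 were high and replicates 1 and 3 low. The fold changes of fat-6 were 0.17 ± 0.15 and 0.01 ± 0.15 (log2, SE). fat-7 had 7.89, 7.64, 7.31 and 7.74 rlog in daf-2(e1370);bcl-11(bon125) and 7.82, 7.99, 7.80 and 7.65 rlog in daf-2(e1370);bcl-11(bon144), against 7.62, 7.85, 7.78 and 7.66 rlog in daf-2(e1370). All 12 libraries were low, and the fold changes of -0.08 ± 0.13 and 0.09 ± 0.13 (log2, SE) had opposite signs for the alleles.

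Among the desaturases of polyunsaturated fatty acids, values were lower in bcl-11(bon144) than in wt for all 4 genes without passing the test. fat-2, which opens this branch, had 13.90, 13.64, 13.41 and 13.76 rlog in bcl-11(bon144), against 14.13, 13.87, 14.18 and 13.61 in wt. fat-3, which acts on linoleic and linolenic acid, had 11.66, 11.89, 11.70 and 11.46 rlog in bcl-11(bon144), against 12.10, 11.67, 12.23 and 11.92 in wt. fat-1, the omega-3 desaturase, had 13.09, 12.83, 12.67 and 12.97 rlog in bcl-11(bon144), against 13.21, 13.18, 13.43 and 12.94 in wt. For each of these genes replicates 1 and 3 were the highest of wt, and the groups overlapped. Fold changes were -0.27 ± 0.16 for fat-2, -0.30 ± 0.14 for fat-3 and -0.30 ± 0.14 for fat-1 (log2, SE), with adjusted p of 0.789, 0.711 and 0.711 in limma. These sizes depended on the processing, with fat-3 at -0.15 with library weights and fat-2 down to -0.17 among the other alternatives. fat-4, which completes arachidonic and eicosapentaenoic acid, was at -0.07 ± 0.11 (log2, SE).

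The remaining contrasts of this branch were smaller as first fitted. In bcl-11(bon125) against wt, fold changes were -0.03 for fat-2, -0.12 for fat-3, 0.01 for fat-4 and 0.01 for fat-1 (log2). Changes in daf-2(e1370);bcl-11(bon125) against daf-2(e1370) were 0.15 for fat-2, 0.16 for fat-3, 0.11 for fat-4 and 0.04 for fat-1. For daf-2(e1370);bcl-11(bon144) against daf-2(e1370) they were 0.01, 0.03, 0.03 and -0.02 in the same order. Under library weights the daf-2 background values of fat-2 moved to 0.39 with bon125 and 0.31 with bon144, and those of fat-6 to 0.31 and 0.21, without a call. The control daf-2(e1370) was the widest group for fat-2, with 14.02, 14.81, 14.01 and 14.72 rlog in replicates 1 to 4, an SD of 0.43.

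**Figure D2:**
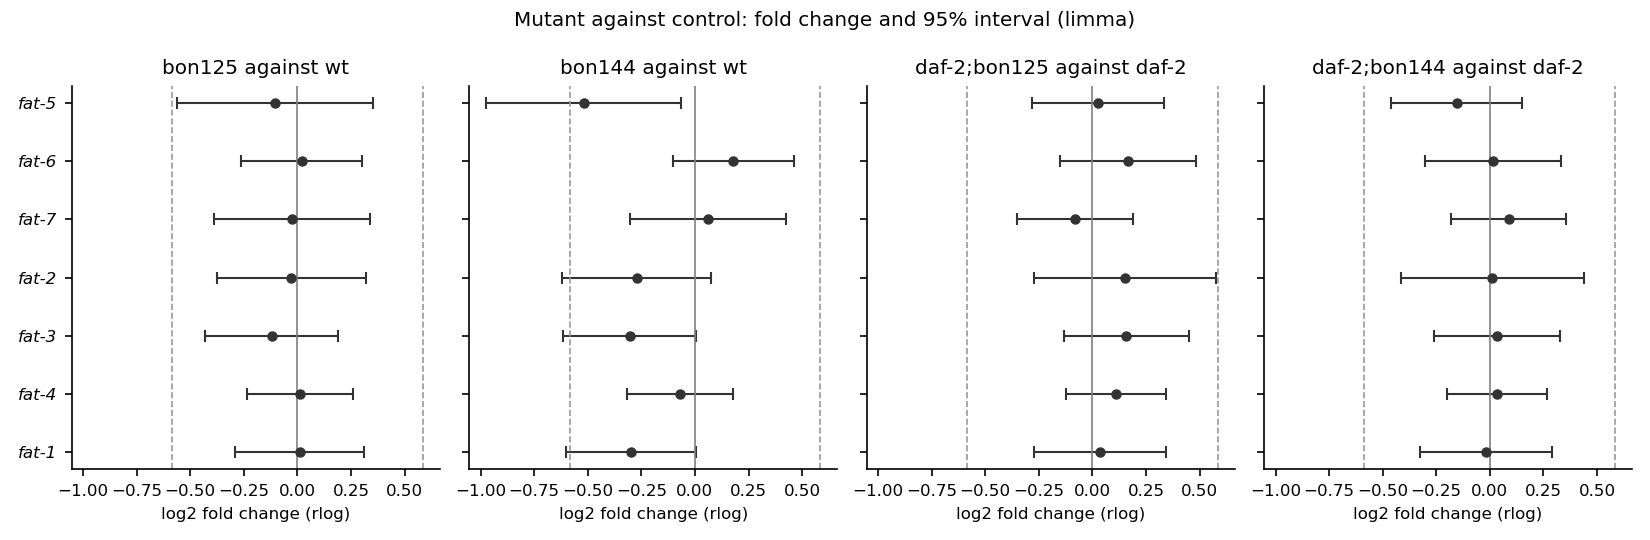
Log2 fold change (horizontal axis, rlog scale) of each desaturase gene in each mutant against its control, with points for the estimate and bars for the 95% interval from limma. Dashed lines mark a 1.5-fold change, 0.585 in either direction; intervals cross the lower line for fat-5, fat-2, fat-3 and fat-1 in bcl-11(bon144) against wt and for no gene in the other 3 panels.

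Set against all genes, these counts were as follows. In bcl-11(bon125) against wt, 0 of 7 desaturases and 0 of 13459 genes (0%) were called by limma, and 0 of 7 desaturases and 1.55% of all genes had an unadjusted p under 0.05. In bcl-11(bon144) against wt, 0 of 7 desaturases and 0.0669% of all genes were called, and 1 of 7, fat-5, and 7.10% of all genes had an unadjusted p under 0.05. For daf-2(e1370);bcl-11(bon125) against daf-2(e1370), 0 of 7 and 0.0141% were called, with 0 of 7 and 4.11% at an unadjusted p under 0.05. In daf-2(e1370);bcl-11(bon144) against daf-2(e1370), 0 of 7 and 0.0565% were called, with 0 of 7 and 3.47% at an unadjusted p under 0.05. The share of all genes whose mutant and control libraries did not overlap was 1.95%, 4.13%, 1.77% and 2.31% in these 4 comparisons, against 0 of 7 desaturases in each. The paper reported more dysregulated genes than this fit called in bcl-11(bon125) against wt and in both double mutants against daf-2(e1370). The shares of called genes therefore hold for this fit on rlog values only, and the reason for the gap was not tested.

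The intervals say how large a change could have gone unseen in the fit as first made. They do not cover the choice of processing, which moved fat-2 in daf-2(e1370);bcl-11(bon125) from 0.15 to as much as 0.39. For bcl-11(bon125) against wt, all 7 intervals lay between -0.56 and 0.35, for daf-2(e1370);bcl-11(bon125) against daf-2(e1370) between -0.35 and 0.58, and for daf-2(e1370);bcl-11(bon144) against daf-2(e1370) between -0.46 and 0.44 (log2), so none reached a 1.5-fold change. For bcl-11(bon144) against wt they ran from -0.97 to 0.46, and 4 of 7 reached a 1.5-fold decrease. The median change of the 7 genes in that comparison was -0.27, beside 0.01 over all 13459 genes. In bcl-11(bon125) against wt the median was -0.02, beside -0.01 over all genes.

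The 6 vitellogenin genes, which encode the yolk proteins that carry lipid to oocytes, had values below the control in 3 of the 4 comparisons. In bcl-11(bon144) all 6 were below wt with a median of -0.78 (log2). There 3 of 6 and 7.10% of all genes had an unadjusted p under 0.05, and 0 were called by limma. vit-3 and vit-4 had close values there, -1.03 and -0.99, and whether the vitellogenin genes share reads was not examined. The 6 may therefore not count as independent genes. All 6 were also below the control in bcl-11(bon125), with a median of -0.51, and in daf-2(e1370);bcl-11(bon144), with a median of -0.33, where the desaturase medians were -0.02 and 0.01. In daf-2(e1370);bcl-11(bon125) 5 of 6 were above it, with a median of 0.05. The mean of the list was 18.12 to 18.30 rlog over the bcl-11(bon144) libraries, against 18.55 to 19.67 over the wt libraries. The 8 sperm markers, of which 6 were kept, averaged 3.72 to 5.79 rlog in bcl-11(bon144) and 3.86 to 4.68 in wt. The 8 oocyte and germline markers averaged 11.94 to 13.29 in bcl-11(bon144) and 12.61 to 13.15 in wt. Median changes of the kept sperm markers were -0.43 in bcl-11(bon125), 0.28 in bcl-11(bon144), -0.35 in daf-2(e1370);bcl-11(bon125) and -0.27 in daf-2(e1370);bcl-11(bon144) (log2). In this order, 0 of 6, 5 of 6, 0 of 7 and 0 of 7 were above 0. Those of the oocyte and germline list were 0.13, -0.01, -0.12 and -0.03, with 8, 4, 0 and 3 of 8 above 0. The part of the yolk, sperm and oocyte lists in the desaturase values was not tested. In bcl-11(bon144) against wt the 7 intestine markers had a median change of 0.11, with 4 above 0, 3 below 0 and 0 called. In bcl-11(bon125) against wt all 7 were below 0, with a median of -0.11 and 0 called. The medians were 0.05 in daf-2(e1370);bcl-11(bon125), with 4 above 0 and 3 below, and -0.04 in daf-2(e1370);bcl-11(bon144), with 2 above 0 and 5 below. The 7 include end-1, an embryonic gene expected to be low in adults.

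The alleles were also set against each other. In bcl-11(bon144) against bcl-11(bon125), 0 of 7 desaturases and 0.0446% of all genes were called, and 1 of 7, fat-1, and 5.68% of all genes had an unadjusted p under 0.05. fat-1 was lower in bcl-11(bon144) in 4 of 4 same-numbered pairs, by 0.18, 0.41, 0.63 and 0.01 on the log2 scale, which held for 1 of 7 desaturases and 5.05% of all genes. Levels in bcl-11(bon125) were 13.26, 13.24, 13.30 and 12.98 rlog, which overlap the bcl-11(bon144) levels given above. Groups without overlap were 0 of 7 desaturases and 2.94% of all genes. The fold change was -0.31 ± 0.14 (log2, SE), with an adjusted p of 0.870 in limma. fat-5 was at -0.42 ± 0.21 with an interval of -0.87 to 0.04. In daf-2(e1370);bcl-11(bon144) against daf-2(e1370);bcl-11(bon125), 0 of 7 and 0.0494% were called, with 0 of 7 and 3.24% at an unadjusted p under 0.05 and 0 of 7 and 3.05% without overlap, and changes ranged from -0.18 for fat-5 to 0.17 for fat-7. There 2 of 7 desaturases, fat-4 and fat-6, and 8.03% of all genes were lower in 4 of 4 pairs.

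To ask if an allele did the same in both backgrounds, its interaction with the background was fitted. Every effect in it is a difference of libraries of the same table. Rlog draws differences of weakly expressed genes towards 0, to an extent that may differ between the tables. The separate normalisation may therefore not cancel fully. With bon125, 0 of 7 desaturases and 0% of 13131 genes were called, with 0 of 7 and 3.39% at an unadjusted p under 0.05. With bon144, 0 of 7 and 0.0609% were called, with 0 of 7 and 2.72% at an unadjusted p under 0.05. The largest estimates were those of bon144 for fat-5, 0.37 ± 0.26, and fat-3, 0.34 ± 0.20 (log2, SE), with intervals of -0.18 to 0.91 and -0.07 to 0.75. Library weights moved fat-5 to 0.65, fat-3 to 0.27 and fat-2, at 0.28 as first fitted, to 0.56, without a call. The fat-5 values of bon144 are thus not shown to differ by background.

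The largest differences among the desaturases lay between the backgrounds, across the separately normalised tables and without a test. fat-7 was lower in daf-2(e1370), with 7.73 ± 0.11 rlog, than in wt, with 10.72 ± 0.31 (SD, n = 4 each), a difference of -2.99 or 7.94-fold. Only 21 of the 13131 genes kept in both tables were lower by more. The difference was -3.05 between daf-2(e1370);bcl-11(bon125) and bcl-11(bon125) and -2.96 between daf-2(e1370);bcl-11(bon144) and bcl-11(bon144). The highest of the 12 daf-2 background libraries was at 7.99 and the lowest of the 12 wild-type background libraries at 10.35, so the ranges were far apart.

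fat-5 had the opposite sign. It averaged 12.15 ± 0.31 rlog in daf-2(e1370) and 10.86 ± 0.40 in wt (SD, n = 4 each), a difference of 1.29 or 2.44-fold, and 868 genes were higher by more. The difference was 1.42 with bon125 and 1.65 with bon144 in both members of the pair, and no library of the daf-2 background was below any of the wild-type background. twk-42 on the other strand differed the other way, with 6.49 ± 0.12 rlog in daf-2(e1370) and 7.75 ± 0.64 in wt. W06D12.8 was near the bottom of both tables, at 0.72 rlog in daf-2(e1370) and -0.69 in wt.

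fat-6 and fat-2 were moderately higher in the daf-2 background. fat-6 averaged 12.95 ± 0.29 rlog in daf-2(e1370) and 12.41 ± 0.22 in wt, a difference of 0.54 whose ranges did not overlap. It was 0.69 with bon125 and 0.37 with bon144, where the ranges met. fat-2 averaged 14.39 ± 0.43 rlog in daf-2(e1370) and 13.95 ± 0.26 in wt, a difference of 0.44 with overlapping ranges. With bon125 and bon144 the difference of fat-2 was 0.62 and 0.72, and its ranges did not overlap. Centring each library on its median reduced the differences of fat-6 to 0.35, 0.47 and 0.18 and those of fat-2 to 0.26, 0.40 and 0.53, in the order control, bon125 and bon144, and all 6 stayed positive.

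The other desaturases had smaller differences, and most changed sign with the scaling. fat-3 was at -0.35 between daf-2(e1370) and wt, where it stayed between -0.54 and -0.26 under the alternatives, at -0.07 with bon125 and at -0.02 with bon144, and the last of these turned positive after quantile normalisation across tables, as did that with bon125. fat-4 was at 0.06, 0.15 and 0.15 and turned negative in all 3 pairs when each library was centred on its median. fat-1 was at 0.04, 0.07 and 0.32 and turned negative under that centring in the first and the second of these pairs, while the difference with bon144 stayed between 0.12 and 0.44. Centring moved the median difference of all genes by -0.18, -0.22 and -0.19, and quantile normalisation by -0.12, -0.14 and -0.10. Under centring and quantile normalisation, fat-7 was at -3.17 and -3.07 and fat-5 at 1.10 and 1.34 between daf-2(e1370) and wt.

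Differences between the tables were common, which limits what a lack of overlap says. The ranges of daf-2(e1370) and wt did not overlap for 3 of 7 desaturases and for 41.8% of all genes. With bon125 it was 4 of 7 and 49.2%, and with bon144 3 of 7 and 38.3%. A difference of more than 1 in either direction was found for 2 of 7 desaturases, fat-5 and fat-7, in each of the 3 pairs, against 12.9%, 14.1% and 13.1% of all genes. The median difference over all genes was 0.03 between daf-2(e1370) and wt.

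**Figure D3:**
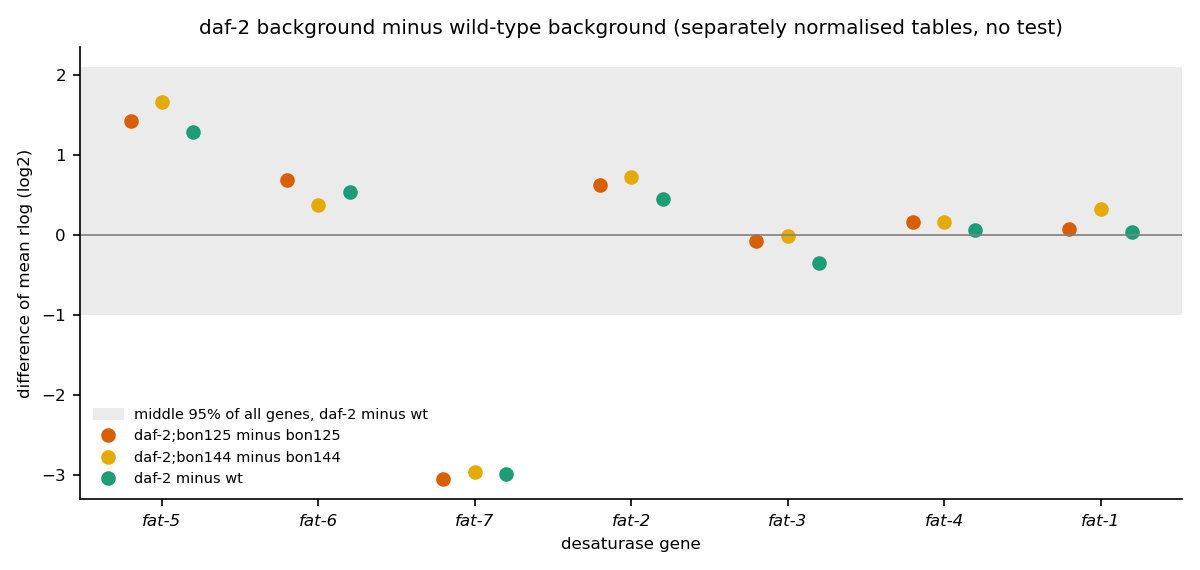
Difference of mean rlog (vertical axis, log2) between each daf-2 background genotype and the wild-type background genotype with the same bcl-11 allele, for each desaturase gene. The grey band holds the middle 95% of the 13131 genes for daf-2(e1370) minus wt, from -0.99 to 2.09; fat-7 lies far under it at -2.99, -3.05 and -2.96, and the other 6 genes lie inside it.

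Since FAT-6 and FAT-7 catalyse the same step and their genes may share reads, their levels were also added on the linear scale. The sum had a log2 of 12.99 ± 0.28 in daf-2(e1370) and 12.80 ± 0.23 in wt (SD, n = 4 each), with libraries from 12.70 to 13.25 and from 12.47 to 12.99 that overlapped. fat-7 made up 2.64% ± 0.47 of the sum in daf-2(e1370) and 23.7% ± 2.5 in wt. Its share was 2.23% ± 0.42 in daf-2(e1370);bcl-11(bon125) against 23.1% ± 1.0 in bcl-11(bon125), and 2.76% ± 0.36 in daf-2(e1370);bcl-11(bon144) against 22.4% ± 4.1 in bcl-11(bon144). With bon125 the log2 of the sum was 13.15 ± 0.08 in the double mutant and 12.81 ± 0.08 in the single mutant, without overlap, and with bon144 it was 13.00 ± 0.21 and 12.96 ± 0.13, with overlap. The difference of the sums, 0.19 for the controls, 0.34 with bon125 and 0.05 with bon144, was 0.0010, 0.12 and -0.15 after median centring and 0.22, 0.43 and 0.14 after quantile normalisation, alternatives added after the data had been seen. Its direction with bon144 therefore depends on the scaling. Whether reads were divided differently between the paralogs in the 2 tables was not tested.

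In 5 of the 24 libraries all 7 desaturases lay on one side of the mean of their genotype. The same count was not taken for other sets of 7 genes, so whether it is unusual is not known. Replicate 1 of wt was above the mean of its genotype for all 7 genes and replicate 4 of wt below it for all 7. In daf-2(e1370), replicate 2 was above for 7 of 7 and replicate 1 below for 7 of 7, and in daf-2(e1370);bcl-11(bon144) replicate 2 was above for 7 of 7. The mean deviation over the 7 genes was 0.16 and -0.27 in those wt libraries and 0.27 and -0.21 in replicates 2 and 1 of daf-2(e1370). No library of daf-2(e1370);bcl-11(bon125), bcl-11(bon125) or bcl-11(bon144) had all 7 on one side, and the mean deviations in bcl-11(bon144) were -0.05 to 0.03.

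**Figure D4:**
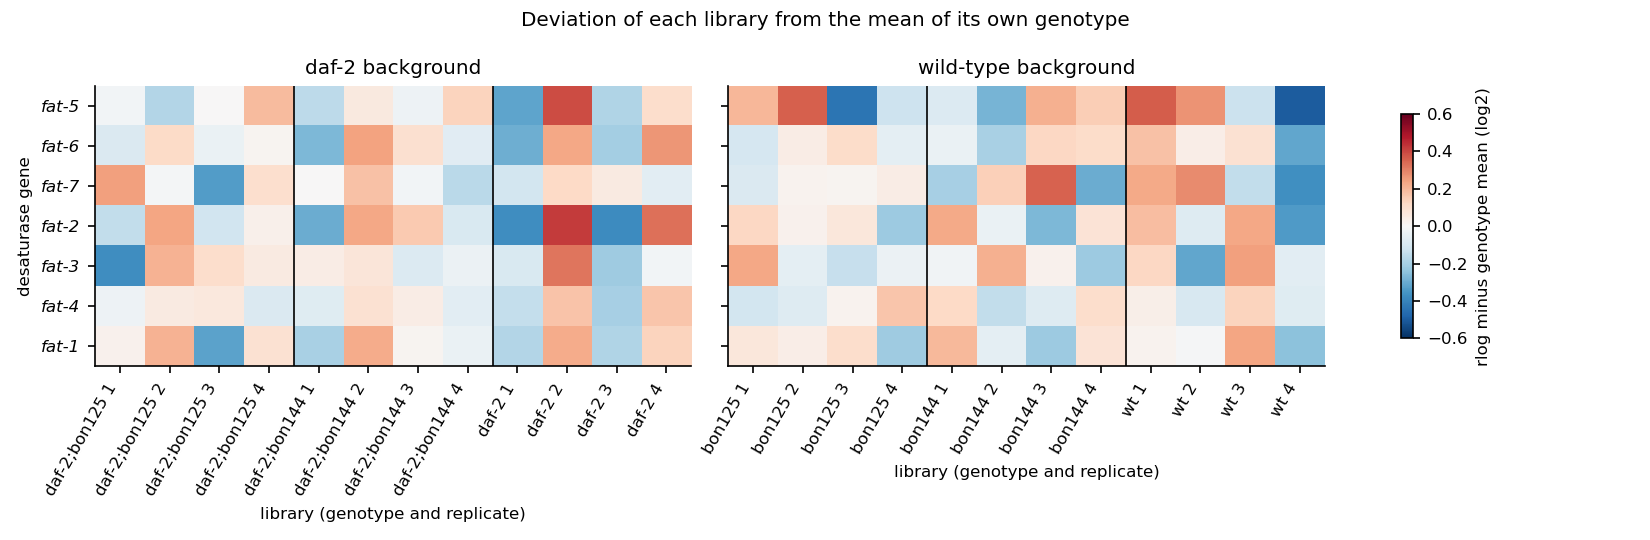
Deviation of each library (horizontal axis, genotype and replicate number) from the mean rlog of its own genotype, as colour from blue (below) to red (above, log2), for each desaturase gene. Whole columns share a colour in replicate 4 of wt (mean -0.27) and in replicates 1 and 2 of daf-2(e1370) (means -0.21 and 0.27), and in most other libraries the signs are mixed.

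Correlations describe the shared deviations for pairs of genes. They were taken over the 12 libraries of a table after the genotype means had been removed, and the points share library preparation and batch. fat-1 and fat-2, neighbours in the genome and in the pathway, had r = 0.84 in the daf-2 background and r = 0.95 in the wild-type background. fat-2 and fat-6 had r = 0.97 in the daf-2 background and 0.46 in the wild-type background, and fat-2 and fat-4 had 0.90 and 0.35. Of the 21 pairs, 20 had a positive r in the daf-2 background and 14 in the wild-type background, with medians of 0.59 and 0.26. Over all pairs of kept genes, 49.8% had a positive r in the daf-2 background and 50.0% in the wild-type background, and genes are not independent of each other. fat-6 and fat-7 were loosely related, with r = 0.23 in the daf-2 background and 0.41 in the wild-type background. fat-3 and fat-4, which lie side by side, had r = 0.57 and -0.08.

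For each desaturase, the genes with the most similar profile were sought by the lower of the Pearson correlations over the 12 libraries of either table, genotype means included. The named genes are the best among the 13131 genes kept in both tables, so their r is high in part by selection. No background value for such a search was computed. The best match of fat-1 was fat-2, with r = 0.84 in the daf-2 background and 0.95 in the wild-type background, followed by the C-type lectin gene clec-62 with 0.85 and 0.84. For fat-2 it was K06G5.1, with 0.92 and 0.89, and the lysosomal lipase gene lipl-4, with 0.89 and 0.88. fat-3 was closest to pcp-1, with 0.87 and 0.88, and to clec-80, with 0.82 and 0.77. fat-4 was closest to pin-2, with 0.82 and 0.82, and to F53C11.9, with 0.80 and 0.77. fat-5 was closest to kel-8, with 0.87 and 0.86, and W10G11.19, with 0.82 and 0.83. The matches were weaker for fat-6, with Y32F6B.1 at 0.76 and 0.74 and egal-1 at 0.74 and 0.79, and for fat-7, with sup-18 at 0.71 and 0.70 and trap-1 at 0.73 and 0.66.

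Genes that work with the desaturases were followed as lists, and in the 4 comparisons of a bcl-11 mutant with its control no gene of any list was called by limma. The list of regulators of fat genes, 15 kept, holds transcription factors and their cofactors beside other proteins and had median changes of -0.08 in bcl-11(bon125), -0.01 in bcl-11(bon144), -0.02 in daf-2(e1370);bcl-11(bon125) and -0.05 in daf-2(e1370);bcl-11(bon144) (log2). sbp-1, the SREBP transcription factor that drives the stearoyl desaturases, had fold changes of -0.23, -0.42, -0.10 and -0.28 in the same order. hlh-30, the TFEB homolog, had -0.29, -0.44, -0.05 and -0.34. In bcl-11(bon144) against wt, 3 of the 15 and 7.10% of all genes had an unadjusted p under 0.05. These were sbp-1, hlh-30 and acdh-11, the last of which encodes an acyl-CoA dehydrogenase, all with negative values and adjusted p of at least 0.629. In daf-2(e1370);bcl-11(bon144) against daf-2(e1370) it was 1 of 15, nhr-80, and 3.47% of all genes.

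Upstream of the desaturases, 6 genes listed under fatty acid synthesis had median changes of -0.18, -0.18, -0.09 and -0.15 in the 4 comparisons. The 6 include mlcd-1, named here because a malonyl-CoA decarboxylase is not a synthesis enzyme. Its mean lay above the control in all 4 comparisons. pod-2, the acetyl-CoA carboxylase, had the largest mean absolute change of the pathway lists, with -0.37, -0.66, -0.10 and -0.48. It was the only one of the 6 with an unadjusted p under 0.05, in the second and the last of these comparisons. acs-1 had -0.25, -0.16, 0.17 and -0.18. Of 12 elongation genes 10 were kept, with elo-5 at -0.32, -0.12, 0.39 and -0.10 and elo-3 at -0.16, -0.37, 0.25 and -0.03. The 5 genes listed as electron donors of desaturases include mfb-1, which is not known to be one. In this list cytb-5.1, a cytochrome b5, had 0.09, 0.26, 0.11 and 0.10 and mfb-1 0.05, 0.16, 0.11 and -0.02. All had adjusted p of at least 0.628.

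Downstream lists were as flat. The 16 genes of phosphatidylcholine and lipid storage had medians between -0.06 and 0.01, with sams-1, the S-adenosylmethionine synthetase, at -0.28, -0.31, 0.01 and -0.27 and fld-1 at -0.25, -0.29, 0.11 and 0.08. The 5 genes for oxygenation of polyunsaturated fatty acids had medians between -0.14 and 0.12, with the epoxide hydrolases ceeh-2 at -0.16, -0.30, 0.06 and -0.08 and ceeh-1 at -0.12, -0.14, 0.20 and 0.08. The other desaturase-like genes, ttm-5 and F33D4.4, had values of -0.22, -0.09, -0.22 and -0.24 and of 0.05, 0.18, -0.01 and 0.02.

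Between the backgrounds, without a test, these lists held larger differences. For daf-2(e1370) minus wt, the cytochrome b5 gene cytb-5.1 was at 0.89 and mfb-1, from the same list, at 1.40. The elongation genes elo-5 and elo-3 were at -0.81 and -0.74. sbp-1 was at 0.45. Picked after their values had been seen, nhr-80, a nuclear receptor that acts on stearoyl desaturase genes, was at 0.37, the nuclear receptor gene nhr-62 at 1.28, the fatty acid synthase gene fasn-1 at 0.84 and the diacylglycerol acyltransferase gene dgat-2 at 1.08. No gene of these pathway lists had a difference as large as that of fat-7. Of the marker lists, oocyte and germline had median differences of -0.49 for daf-2(e1370) minus wt, -0.72 for the bon125 pair and -0.28 for the bon144 pair. Yolk was at -0.41, 0.20 and 0.13, sperm at 0.20, 0.07 and -0.54 and intestine at 0.04, 0.11 and -0.28. Hypodermis was at 0.25, 0.33 and 0.21, with its members apart, the collagen genes dpy-7 at 3.58 and col-19 at -0.98 for daf-2(e1370) minus wt and 2 of 6 negative. Their part in the desaturase differences was not tested.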

How the data were processed

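Whole-worm RNA of 24 libraries was analysed. Per the labels and the methods, the authors made non-stranded Smart-seq2 cDNA libraries, sequenced paired ends and quantified transcripts of WBcel235 with Kallisto 048.0. The deposited values are rlog values per gene, a log2 scale that draws differences of weakly expressed genes towards 0, in 2 separately normalised tables. The thresholds for calls follow the study, whose test is not given in the sources used here.

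Groups and batch numbers came from the labels. A gene needed a mean rlog of 3 or more to be kept (13459 and 14169 genes). For each table, limma 3.58.1 under R 4.3.3 estimated the genotype means (eBayes with a mean trend, two-sided, Benjamini-Hochberg over all kept genes). Interactions used all 24 libraries and the 13131 genes kept in both tables. Names and positions came from Ensembl release 115 of WBcel235.

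The replicate number equals the batch in the labels and pairs libraries across genotypes. Deviations of same-numbered libraries correlated by 0.24, 0.22, 0.03 and 0.16 on average in the 4 comparisons of a bcl-11 mutant with its control. Alternatives were another choice of genotypes in the fit, the replicate block, the filter, the variance trend, library weights, median centring, quantile normalisation and leaving out each library.

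The 7 genes and the gene lists were chosen with earlier results of these data known. List genes were named where called, otherwise the 2 of a list with the largest mean absolute change over the 4 comparisons with a control, and for each desaturase the 2 genes most like it. The measured markers were 7 of 8 for intestine, 7 for hypodermis, 8 for oocyte and germline, 8 for sperm and 6 for yolk.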

Additional observations from a re-analysis of the deposited data

How the results depend on the processing

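None of the 7 desaturases was called in any of the 8 comparisons under any alternative run. Of 1274 alternative values of the 56 fold changes, 1206 kept their sign and 68 did not. Of the 31 fold changes of at least 0.1 in size, library weights moved 14 by over 1.5 times, quantile normalisation 7 and median centring 1. The 68 belonged to 23 fold changes, none larger than 0.17 in size, and the smallest adjusted p of a desaturase under any alternative was 0.276. The replicate block (the batch as a term) changed no call of a desaturase.

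Counts of called genes over the whole tables moved more. In bcl-11(bon125) against wt, 4 genes were called with only the compared genotypes in the fit, 1 with the replicate block and 4 with library weights, against 0. In bcl-11(bon144) against wt it was 1 and, with the replicate block, 2, against 9. For daf-2(e1370);bcl-11(bon144) against its control, 3 genes were called with only the compared genotypes, against 8. For bcl-11(bon144) against bcl-11(bon125) it was 1 with only these genotypes, 3 with the replicate block and 3 after quantile normalisation, against 6. Between the double mutants, library weights, median centring and quantile normalisation gave 11 each, against 7. The interaction of bon125 had 3 calls with library weights, against 0, and that of bon144 had 5 with the replicate block, 5 with a mean rlog of at least 5 and 15 with library weights, against 8. The cause was not tested.

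Fold changes near 0 that changed sign were, in bcl-11(bon125) against wt, fat-2 with library weights (0.021) and median centring (0.00951), fat-7 with median centring (0.014) and fat-1 after quantile normalisation (-4.72e-04). For daf-2(e1370);bcl-11(bon144) against its control they were fat-1 with library weights (0.13) and quantile normalisation (0.10) and fat-5 with library weights (0.0075). In the interactions they were fat-7 (0.076, bon125) and fat-6 (0.058, bon144) with library weights and fat-1 with median centring (-0.0062, bon125). Between daf-2(e1370) and wt, fat-4 moved to -0.13 with median centring.

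Leaving out 1 library at a time gave the following ranges. In bcl-11(bon125) against wt, 0 to 4 genes were called, with fat-1 from -0.073 to 0.089, fat-2 from -0.14 to 0.048, fat-4 from -0.041 to 0.059, fat-5 from -0.27 to 0.041, fat-6 from -0.085 to 0.078 and fat-7 from -0.15 to 0.071. In bcl-11(bon144) against wt, 1 to 17 genes were called, with fat-7 from -0.061 to 0.16. It was 1 without replicate 1, 2 or 4 of wt, 4 without replicate 3 of wt, 5 without replicate 1 or 2 of bcl-11(bon125), 17 without replicate 1 of bcl-11(bon144) and 2 or 3 without another library of bcl-11(bon144). For daf-2(e1370);bcl-11(bon125) against its control, 2 to 4 genes were called, with fat-1 from -0.031 to 0.14, fat-5 from -0.080 to 0.16 and fat-7 from -0.16 to 0.030. For daf-2(e1370);bcl-11(bon144) against its control, 3 to 6 genes were called, with fat-1 from -0.094 to 0.054, fat-2 from -0.11 to 0.15, fat-3 from -0.037 to 0.14, fat-4 from -0.035 to 0.088 and fat-6 from -0.084 to 0.10. Between the single mutants, 1 to 16 genes were called, with fat-7 from -0.033 to 0.19. Between the double mutants, 3 to 11 genes were called, with fat-1 from -0.16 to 0.012. In the interaction of bon125, 0 to 1 genes were called, with fat-1 from -0.051 to 0.14, fat-5 from -0.015 to 0.30 and fat-7 from -0.15 to 0.065. In the interaction of bon144, 4 to 10 genes were called, with fat-7 from -0.074 to 0.15.

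Depth is unknown, so the limit of these data is the spread of 4 libraries a genotype.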
